A study of Danio rerio with 16 samples.

Results

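Development between 24 and 48 hours post fertilisation (hpf) was followed here in zebrafish embryos homozygous for a rad21 mutation, to see which programmes of gene expression still switched on or off. The comparison rests on 8 of the 16 arrays in the series, namely 4 arrays of homozygous rad21 mutants at 48 hpf and 4 at 24 hpf. The remaining 8 arrays, 4 of wild type embryos at 48 hpf and 4 at 24 hpf, were used to test where the mutant time course differed. Mutants carried the nz171 allele of rad21 on both chromosomes in every cell, and the annotation of the array calls the gene rad21a. Each array received RNA from its own pool of 50 whole embryos taken out of the chorion, and the labels call the pools biological replicates. The labels name no strain and do not say how homozygotes were recognised, and a pool averages over all tissues and over embryos that may differ in stage.

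Rad21 is the kleisin subunit that closes the ring of cohesin, the complex that holds sister chromatids together from replication to anaphase and that also shapes chromatin loops. Between 24 and 48 hpf a wild type zebrafish embryo ends segmentation, builds fast muscle, connects its first neurons, deposits pigment, circulates blood and starts its jaw skeleton and fins, while its early rapid growth slows. Genes that switch on over these hours can therefore include those of differentiated tissues, and genes that switch off those of the tailbud, proliferation and growth. The direction of a change does not by itself place a gene in either class.

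Values are log2 intensities, and the change of a gene is the mean at 48 hpf minus the mean at 24 hpf, fitted with limma over all 16 arrays, with its standard error (SE) after ± and n = 4 arrays a group throughout. A change was counted as a rise or fall at a Benjamini-Hochberg adjusted p under 0.05 over 15502 probe sets. The 5 probe sets for foreign sequences, which embryos do not carry, read 2.77 to 6.61 in the mutant arrays (median 4.61), so that levels near 4.6 are close to background and changes against them are compressed. The first principal component of the 8 mutant arrays held 66.2% of their variance and placed all 48 hpf arrays above all 24 hpf arrays. The 48 hpf replicate 4 was the mutant array least like its group (mean correlation with it 0.983, against 0.986 to 0.990 for the other 48 hpf arrays and 0.990 to 0.993 for the 24 hpf arrays). Differences between 3' and 5' control probe sets, a sign of RNA integrity, changed by -0.121 for actin (exact two-sided permutation p = 0.571) and by 0.075 for GAPDH (exact permutation p = 0.114, 0.228 adjusted over both), where the smallest p that 4 arrays against 4 allow is 0.0286. The 3' minus 5' difference itself was large for actin, with means of 3.56 at 48 hpf and 3.69 at 24 hpf (single arrays 3.39 to 4.08). For GAPDH the means were 0.61 and 0.535. Wild type arrays were not checked in this way. Markers of the whole embryo were checked as well, with 38 of 52 listed markers measured. Of these, 16 lay above the highest foreign reading of all 16 arrays (7.22) in all 4 mutant arrays of at least 1 time, and they came from 9 of 14 tissues, among them muscle, neuron, lens, epidermis and pigment cell. Tailbud, notochord, photoreceptor, myeloid and exocrine pancreas markers did not reach that level in all 4 arrays of a time.

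Transcripts of rad21a itself were reduced in all 8 mutant arrays. Its level was 6.57, 6.72, 6.05 and 5.92 in mutants at 48 hpf, against 6.58, 6.72, 7.06 and 6.83 in mutants at 24 hpf. In wild types it was 10.48, 10.26, 10.06 and 10.15 at 48 hpf, against 10.09, 10.48, 10.55 and 10.40 at 24 hpf. No mutant array overlapped the wild type range at either time. Rad21 protein was not measured, so how much of it remained at either time is not known from these arrays. Within mutants the further fall with time was small (-0.48 ± 0.17, adjusted p = 0.0454), and it did not pass when any of 10 single arrays was left out (adjusted p = 0.0517 to 0.152) or with cyclic loess scaling (-0.36, adjusted p = 0.143).

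Mutant embryos changed broadly over the day. In mutants 1708 of 15502 probe sets rose (11.0% of all) and 1960 fell (12.6%), and the median over all probe sets was 0.01. At least 2-fold, 433 rose (2.79%) and 140 fell (0.903%). Wild types changed at more probe sets in the same model, with 1957 higher (12.6%) and 2739 lower (17.7%). Counted by gene, with 1 probe set for each of 8793 genes, 12.6% rose and 15.4% fell in mutants, and the gene lists below are to be read against these shares. The lists were chosen with earlier results of these data known and are described by counts and medians. Small counts often moved by 1 or 2 genes when an array was left out, and moves of over 1.5 times in counts of 3 or more are given beside the list.

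Most of the large wild type changes also took place in mutants. Of the 541 probe sets that rose at least 2-fold in wild types, 450 rose in mutants (83.2%), with a median change of 1.11 in mutants and 1.47 in wild types. Of the 245 that fell at least 2-fold in wild types, 219 fell in mutants (89.4%), with medians of -0.91 in mutants and -1.23 in wild types. Both sets were picked for a large wild type change, which by itself lifts the wild type medians. Over all calls, 1127 probe sets rose in both genotypes, 66.0% of the mutant and 57.6% of the wild type rises. A further 1341 fell in both, 68.4% of the mutant and 49.0% of the wild type falls. Opposite calls were made at 17 probe sets.

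Each array was then placed on the wild type change over the 786 probe sets that rose or fell at least 2-fold in wild types, with 0 at the wild type 24 hpf mean and 1 at the wild type 48 hpf mean, a measure chosen after the data were seen. The mutant 48 hpf arrays lay at 0.58, 0.64, 0.69 and 0.86 (mean 0.69 ± 0.12 SD), against -0.10, -0.15, -0.02 and 0.15 for the mutant 24 hpf arrays (mean -0.03 ± 0.13 SD). The wild type 48 hpf arrays lay at 0.99 to 1.01 and the wild type 24 hpf arrays at -0.13 to 0.07. At 24 hpf the genotypes overlapped on this scale, and at 48 hpf every mutant array lay below every wild type array. When a wild type 48 hpf array was placed on a scale made without it, it lay between 0.95 and 1.00, and the mutant 48 hpf arrays between 0.57 and 0.87. Rising genes stood at 0.57 to 0.83 and falling genes at 0.62 to 0.95 in the mutant 48 hpf arrays. Replicate 4 was the furthest along among the mutant arrays of each time, and replicate 1 the least far among those at 48 hpf.

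**Figure D1:**
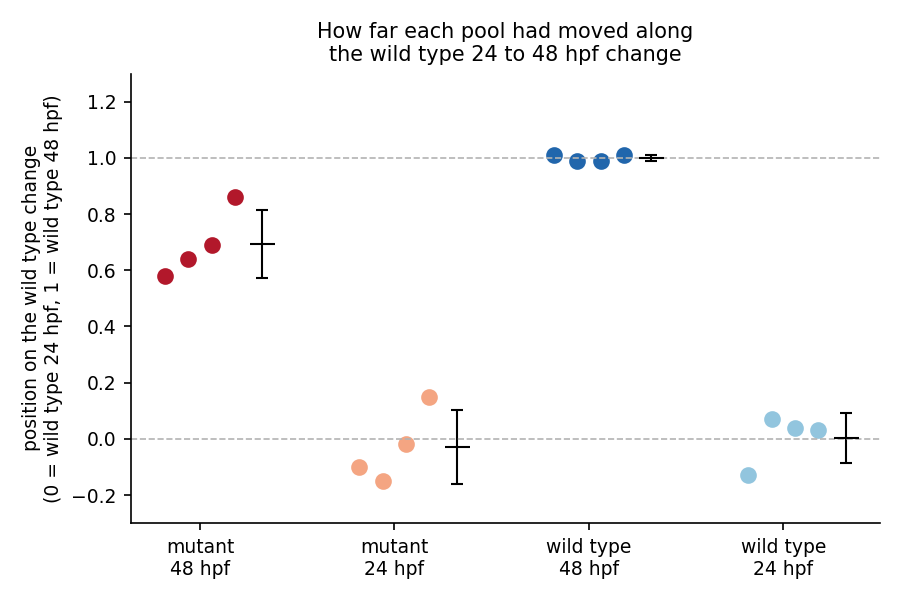
Position of each array on the wild type 24 to 48 hpf change (vertical axis, 0 = mean of wild type 24 hpf, 1 = mean of wild type 48 hpf) by group; points are arrays, bars the mean ± SD (n = 4). Mutant 48 hpf arrays sit between 0.58 and 0.86, below the wild type 48 hpf arrays at 0.99 to 1.01, while the 24 hpf groups overlap.

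The largest increases in mutants included genes of fast muscle, lens, fin fold, skin and pigment. Muscle supplied most of them. Parvalbumin genes encode the calcium buffers that let fast muscle relax, and 4 of the 15 largest increases were parvalbumins. The level of pvalb1 was 10.93, 11.44, 11.50 and 12.64 in mutants at 48 hpf, against 4.55, 4.34, 5.58 and 7.31 at 24 hpf (6.18 ± 0.55, adjusted p = 9.95e-07). All 4 later arrays lay far above all 4 earlier arrays, and the wild type change was 6.05. The fast troponin gene tnnt3b read 11.66, 11.83, 11.94 and 12.53 at 48 hpf, against 5.73, 5.82, 6.69 and 8.42 at 24 hpf. Its change was 5.32 ± 0.49. The mitochondrial ADP/ATP carrier slc25a4 rose by 5.09 ± 0.24, to 9.20, 9.55, 9.37 and 10.03 at 48 hpf, against 4.33, 4.06, 4.26 and 5.14 at 24 hpf. Outside muscle, the lens crystallin crybb1 rose by 4.45 ± 0.27 and the actinodin and1, a fibre protein of the fin fold, by 4.19 ± 0.33. The keratins krt1-19e (3.62) and krt91 (3.50) and dct, the melanin enzyme dopachrome tautomerase (3.40), were also among them. The transcobalamin gene tcnbb, of a family that binds vitamin B12, read 10.70, 11.06, 10.82 and 11.31 at 48 hpf, against 5.63, 5.07, 6.50 and 8.14 at 24 hpf (4.64 ± 0.42). Related parvalbumins and keratins are similar in sequence, and how far their probes share transcripts was not tested.

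The largest decreases included genes of the tailbud, somites, yolk and skin. Urate oxidase, uox, fell by 3.50 ± 0.43 on the log2 scale, with 5.90, 4.81, 4.06 and 3.54 at 48 hpf, against 8.84, 8.55, 8.04 and 6.89 at 24 hpf. The level of msgn1, a transcription factor of unsegmented paraxial mesoderm, was 3.99, 3.87, 4.36 and 3.88 at 48 hpf, against 8.53, 8.35, 7.01 and 5.60 at 24 hpf (-3.35 ± 0.44, adjusted p = 4.36e-05). The 48 hpf values are at background, while the 24 hpf arrays spread over almost 3 log2 units, and a second, dimmer probe set of msgn1 did not pass (-0.23). The posterior homeobox gene cdx4 read 5.82, 5.46, 5.35 and 4.55 at 48 hpf, against 8.88, 8.68, 8.17 and 7.77 at 24 hpf (-3.08 ± 0.24). Other large falls were in the keratin krt99 (-3.13), the elastic fibre protein efemp2b (-2.31), the cathepsin ctss2.1 (-2.31) and tdgf1, the Nodal co-receptor known in zebrafish as one-eyed pinhead (-1.71). In ctss2.1 the 48 hpf arrays ran widely, at 11.13, 10.25, 9.38 and 7.91, against 11.87 to 12.10 at 24 hpf.

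**Figure D2:**
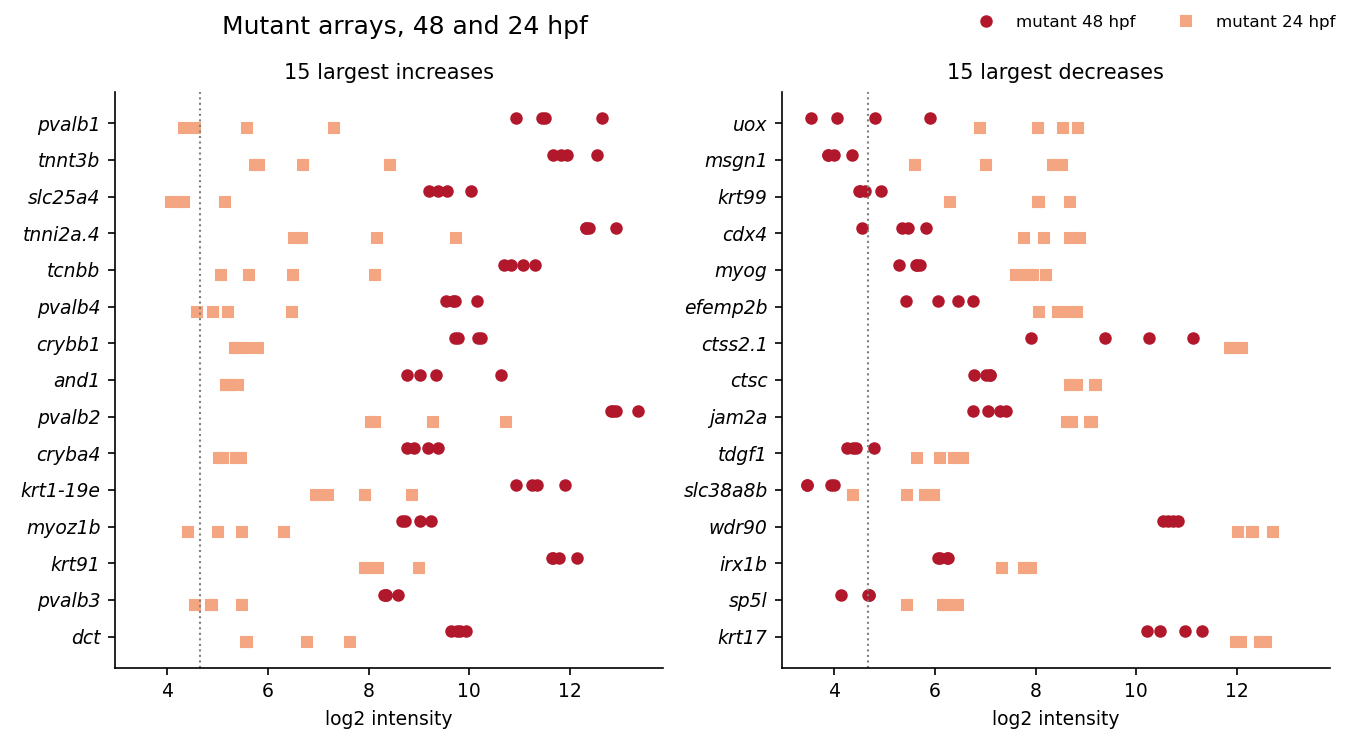
Log2 intensity (horizontal axis) of the 15 genes with the largest increases (left) and decreases (right) in mutants; circles are the 4 arrays at 48 hpf, squares the 4 arrays at 24 hpf, and the dotted line is the median of the foreign sequences over all arrays (4.66). By the rule that chose these genes the times do not overlap; pvalb1 spans 4.34 to 12.64.

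Many skeletal muscle genes rose, and so did most glycolysis genes, although the tissues in which the glycolysis genes rose were not tested. Of 65 skeletal muscle genes 37 rose, 7 fell and 21 did not pass, with a median of 0.80 in mutants and 0.97 in wild types. The mean level over the 65 genes was 8.70, 8.83, 8.82 and 9.12 in mutants at 48 hpf, against 7.29, 7.38, 7.74 and 8.08 at 24 hpf, so that the times did not overlap. Myogenin, myog, which drives the last step of muscle cell differentiation, went the other way. It read 5.70, 5.28, 5.62 and 5.65 at 48 hpf, against 7.95, 8.20, 7.85 and 7.62 at 24 hpf (-2.34 ± 0.15, wild type -2.58). Among the structural genes, pvalb4 rose by 4.48 and the Z-disc protein myoz1b by 3.61. In pools of whole embryos, more cells of a type and more RNA per cell cannot be told apart, here or below.

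Of 32 glycolysis genes 24 rose and 0 fell (26 and 0 at an unadjusted p under 0.05), with a median of 1.07 in mutants and 1.09 in wild types. The muscle phosphoglycerate mutase pgam2 read 10.91, 10.95, 10.80 and 11.15 at 48 hpf, against 7.87, 7.64, 8.05 and 8.83 at 24 hpf (2.86 ± 0.19). It is also in the skeletal muscle list, so the 2 lists are not separate sets of genes. The glyceraldehyde phosphate dehydrogenase gapdhs rose by 2.56 ± 0.18, the enolase eno3 by 2.41 ± 0.22 and the phosphoglycerate kinase pgk1 by 1.90 ± 0.17, although a dim further probe set of pgk1 did not pass (0.14). In the respiratory chain 31 of 77 genes rose, 0 fell and 46 did not pass (46 and 0 at an unadjusted p under 0.05). That count was 20 without mutant 24 hpf replicate 3 or without mutant 48 hpf replicate 4, and 52 with cyclic loess scaling. The changes were smaller than in glycolysis, with a median of 0.29 in mutants and 0.17 in wild types. They included atp5mc1, a ring subunit of the ATP synthase, at 11.50, 11.63, 11.55 and 11.92 at 48 hpf, against 10.91, 10.98, 11.00 and 11.01 at 24 hpf (0.67 ± 0.10).

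Genes of differentiated neurons also rose. Of 70 genes of differentiated neurons 43 rose, 1 fell and 26 did not pass, with a median of 0.65 in mutants and 0.66 in wild types. Their mean level was 5.95, 6.13, 6.24 and 6.46 at 48 hpf, against 5.35, 5.23, 5.48 and 5.63 at 24 hpf. The neuronal G protein subunit gng3 rose by 1.62 ± 0.17, with 8.19, 8.21, 8.27 and 8.85 at 48 hpf, against 6.77, 6.31, 6.69 and 7.27 at 24 hpf. The reticulon rtn1a rose by 0.80 ± 0.08 and glra4a, a glycine receptor subunit, by 1.66 ± 0.16. The 1 gene that fell was isl1a, a LIM homeobox factor of early-born motor and sensory neurons. It read 6.88, 6.92, 6.97 and 6.60 in mutants at 48 hpf, against 7.42, 7.59, 7.43 and 7.17 at 24 hpf (-0.56 ± 0.13). In wild types isl1a rose by 0.49, and the difference of the changes passed the test (-1.05 ± 0.19, adjusted p = 0.00846), whereas a second probe set at background did not (-0.44).

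Over the same hours genes of dividing neural precursors fell in part. Among 60 genes of neural progenitors the falls numbered 22 and the rises 5, while 33 did not pass, with a median of -0.26 in mutants and -0.10 in wild types. The rises numbered 3 without mutant 24 hpf replicate 2. The SoxB1 gene sox19a read 9.31, 9.29, 9.17 and 8.56 at 48 hpf, against 10.36, 10.20, 10.37 and 10.22 at 24 hpf (-1.20 ± 0.16). The forebrain and midbrain gene otx1 fell by 0.93 and the midbrain-hindbrain gene en2b by 0.94. The radial glial lipid-binding gene fabp7a rose (1.42 ± 0.21). Among 23 glia and myelin genes 9 rose and 6 fell. Besides fabp7a, which is also in this list, the rises included the calcium-binding s100b (1.99), the glial and neuronal aldolase aldocb (1.66) and the myelin protein pmp22b (1.36).

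In the eye, 3 lens crystallins rose steeply while most other lens genes did not pass. Of 16 lens genes 3 rose, 1 fell and 12 did not pass in mutants, with a mean level of 5.12, 5.28, 5.14 and 5.17 at 48 hpf, against 4.49, 4.28, 4.34 and 4.27 at 24 hpf. In wild types 8 rose and 0 fell, with a median of 0.44, against 0.17 in mutants. The difference of the changes passed at 3 of the 16, with the mutant change the lower one at all 3 (0.845% of all probe sets). The 3 that rose in mutants were the crystallins crybb1, cryba4 (3.81) and crygmxl2. The level of crygmxl2 was 7.25, 8.03, 7.53 and 8.11 in mutants at 48 hpf, against 4.51, 4.39, 4.41 and 4.31 at 24 hpf (3.32 ± 0.14). Of 42 photoreceptor and retina genes 5 rose, a share close to that over all genes, 1 fell and 36 did not pass. The risen genes included 3 that serve the visual cycle of the pigment epithelium and retina, rlbp1a (1.72), rpe65a (0.95) and rgrb (0.76). The photoreceptor markers crx, nr2e3 and gnat2 stayed at background at both times (highest array 3.63, 3.51 and 4.56 at 48 hpf, 3.57, 3.38 and 3.95 at 24 hpf).

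Among the blood lists, rises were most frequent in the myeloid one. Of 28 erythroid genes 5 rose, 4 fell and 19 did not pass in mutants, where 12 rose and 7 fell in wild types. The share of falls in mutants was near that over all genes. Without mutant 24 hpf replicate 1 or 2 the rises numbered 3, and without replicate 2 the falls numbered 2. The mean change over the 28 genes was 0.20 in mutants and 0.61 in wild types, and the list means of the mutant times overlapped. The difference of the changes passed at 4 of the 28, with the mutant change below the wild type change at all 4 (0.845% of all probe sets). The embryonic globin hbbe2 read 10.94, 10.98, 11.01 and 11.06 at 48 hpf, against 7.39, 7.45, 7.35 and 8.40 at 24 hpf (3.36 ± 0.17, wild type 3.26). The embryonic alpha globin hbae3 rose by 1.09 ± 0.19, with every 48 hpf array (13.14 to 13.59) above every 24 hpf array (11.98 to 12.85). The water channel aqp1a.1 rose (0.90), but its mutant times overlapped, at 5.37 to 6.37 at 48 hpf, against 4.72 to 5.48 at 24 hpf. Among myeloid genes 10 of 27 rose and 1 fell. The leukocyte lysozyme lyz read 7.78, 7.30, 7.17 and 6.87 at 48 hpf, against 4.71, 4.50, 4.52 and 4.26 at 24 hpf (2.79 ± 0.23), and the leukocyte granule proteoglycan srgn rose by 1.79 ± 0.15. The 1 that fell was ctss2.1, which read 11.87 to 12.10 at 24 hpf, far above lyz. The cells that express it were not tested. In the myeloid list the difference of the changes passed with the mutant change higher at 1 of 27 and lower at 3 (0.606% and 0.845% of all probe sets). In blood stem and progenitor genes 1 of 22 rose and 2 fell, both below the shares over all genes. Of the fallen genes drl, a zinc finger gene of lateral mesoderm, changed by -1.33 ± 0.17. The falls numbered 4 without mutant 24 hpf replicate 4.

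Of 32 genes of neural crest and pigment 7 rose, 6 fell and 19 did not pass, and the share of falls was near that over all genes. The melanin enzyme dct read 9.64, 9.76, 9.81 and 9.93 at 48 hpf, against 5.58, 5.57, 6.77 and 7.62 at 24 hpf. The melanosome fibril gene pmelb rose by 1.81 ± 0.17 and the tetraspanin tspan36 by 1.60 ± 0.17. The crest specifier foxd3 fell, with 6.79 to 7.05 at 48 hpf, against 7.74 to 8.20 at 24 hpf (adjusted p = 6.54e-06).

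A minority of skeletal and matrix genes rose. In the pharyngeal arch and cartilage list 10 of 48 rose and 1 fell in mutants, and 18 rose and 3 fell in wild types. The skeletal regulator runx2a rose by 1.77 ± 0.22, to 6.94, 7.04, 7.08 and 7.70 at 48 hpf, against 5.79, 4.82, 5.11 and 5.97 at 24 hpf, while a further probe set did not pass (0.24). The cartilage matrix gene matn4 rose by 1.33 ± 0.24. Of 57 collagen and matrix genes 14 rose and 6 fell, among them col1a2, a chain of collagen type I, at 9.99, 10.52, 10.79 and 11.00 at 48 hpf, against 7.94, 8.08, 8.83 and 9.30 at 24 hpf (2.04 ± 0.30). Periostin, postnb, rose by 1.24 ± 0.16 and the tenascin tnn by 2.50 ± 0.34. In the fin fold and fin bud list 7 of 30 rose and 6 fell, the falls numbering 3 without mutant 24 hpf replicate 2 or mutant 48 hpf replicate 3.

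In epidermis and keratins 17 of 54 rose and 9 fell, the falls being close to the share over all genes. The keratin krt5 read 10.82, 10.85, 10.19 and 10.99 at 48 hpf, against 12.34, 12.35, 12.22 and 11.93 at 24 hpf (-1.50 ± 0.14), whereas krt18b rose by 1.84 ± 0.20. The falls numbered 5 without mutant 48 hpf replicate 3 or with cyclic loess scaling. Among 21 genes of ionocytes, the ion-transporting skin cells, and of sodium pumps, 6 rose and 1 fell. The sodium pump subunit atp1a1a.2 read 8.74, 8.09, 8.73 and 8.57 at 48 hpf, against 5.59, 5.49, 5.57 and 6.69 at 24 hpf (2.70 ± 0.23). Its partner subunit atp1b1b rose by 1.99 ± 0.18 and the water and glycerol channel aqp3a by 2.88 ± 0.32.

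Liver and yolk plasma protein genes rose at 27 of 79 members and fell at 4, with a median of 0.21 in mutants and 0.37 in wild types. The fibrinogen chain fgg read 10.28, 10.74, 11.14 and 10.59 at 48 hpf, against 9.10, 9.03, 8.92 and 8.91 at 24 hpf (1.70 ± 0.16), and fgb rose by 1.40 ± 0.17. The count of falls was 1 or 2 without any of 6 single mutant arrays. Of the yolk and liver markers, fabp10a stayed at background in mutants (mean 3.85 at 48 hpf and 3.87 at 24 hpf). The mutant means of tfa were 12.24 and 12.51, and those of apoa1a 13.89 and 13.68. In pancreas and gut 12 of 49 rose and 4 fell. Insulin, ins, read 6.87, 6.76, 6.96 and 7.08 at 48 hpf, against 5.88, 5.55, 5.71 and 5.68 at 24 hpf (1.21 ± 0.11), and fabp2, the intestinal fatty acid-binding protein gene, which the yolk cell is also known to express, fell by 1.27 ± 0.16 on the log2 scale. In the heart list 4 of 28 rose and 4 fell, both near the shares over all genes (median 0.05). In endothelium 1 of 16 rose and 2 fell (median 0.07), and in pronephros 1 of 21 rose and 3 fell (median 0.02), all below the shares over all genes. The heart myosin-binding gene mybpc3 rose by 2.93 ± 0.27, to 7.31, 7.40, 7.94 and 8.58 at 48 hpf, against 4.63, 4.56, 4.84 and 5.48 at 24 hpf. The pronephros falls numbered 1 without mutant 24 hpf replicate 1, mutant 48 hpf replicate 2 or mutant 48 hpf replicate 3, and 5 without wild type 24 hpf replicate 1, whose array enters only through the shared spread.

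Ribosome biogenesis and DNA replication genes fell at most measured members in mutants, and mitosis genes at fewer. Ribosome biogenesis fell at 74 of 84 genes and rose at 0 (79 and 0 at an unadjusted p under 0.05), with a median of -0.74 in mutants and -0.89 in wild types. Its mean level was 6.93, 6.80, 6.79 and 6.52 at 48 hpf, against 7.65, 7.72, 7.41 and 7.21 at 24 hpf. Fibrillarin, fbl, which methylates ribosomal RNA, read 8.81, 9.02, 8.91 and 8.62 at 48 hpf, against 9.93, 10.05, 10.03 and 9.72 at 24 hpf (-1.09 ± 0.10, adjusted p = 1.41e-06). The nucleolar genes nop58 (-0.96), mybbp1a (-1.29) and npm1a (-1.33) fell as well, though a further probe set of npm1a did not pass (0.30). In the Myc network 7 of 12 fell and 1 rose, among them myclb (-1.07), mych (-1.03) and mycn (-0.87). The level of myca was 4.25, 4.14, 3.98 and 3.78 in mutants at 48 hpf, against 4.87, 4.38, 4.75 and 4.57 at 24 hpf, near background at both times (-0.60 ± 0.16, which did not pass with 16 added before the logarithm, adjusted p = 0.0709), and its wild type means were 6.75 at 48 hpf and 6.91 at 24 hpf.

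DNA replication fell at 41 of 52 genes and rose at 0 (49 and 0 at an unadjusted p under 0.05), with a median of -0.63 in mutants and -0.72 in wild types. The mean level was 7.57, 7.44, 7.29 and 6.68 at 48 hpf, against 7.91, 7.99, 7.87 and 7.72 at 24 hpf, with 48 hpf replicate 4 the lowest of all. Without that array, or without mutant 24 hpf replicate 2, 26 genes fell. The licensing factor cdt1 read 6.45, 6.49, 6.11 and 5.62 at 48 hpf, against 7.02, 7.21, 7.26 and 7.30 at 24 hpf (-1.03 ± 0.15). The helicase subunit mcm3 fell by 1.16 ± 0.19 and the histone mRNA-binding slbp by 0.98 ± 0.17. In mitosis 18 of 42 fell, 1 rose and 23 did not pass, with a median of -0.34 in mutants and -0.48 in wild types. They included the spindle checkpoint gene mad2l1 (-0.86 ± 0.14), the midzone crosslinker prc1a (-0.71 ± 0.14) and the kinase plk1 (-0.55 ± 0.11), and 11 fell with cyclic loess scaling. Among 13 cohesin genes and cohesin regulators 8 fell and 0 rose in mutants (10 and 0 at an unadjusted p under 0.05). In wild types 2 fell and 0 rose (6 and 0 at an unadjusted p under 0.05). The difference of the changes passed for 0 of the 13. The 8 included rad21a itself, whose fall was lost without any of 10 single arrays. Others were smc1al (-0.56 ± 0.11, with 3 of 4 further probe sets not passing) and cdca5, which encodes the cohesin protector sororin (-0.72 ± 0.17). The count of 8 was 5 without mutant 24 hpf replicate 2 or 3, and 4 with cyclic loess scaling. Cytosolic ribosomal protein genes moved little (median -0.18 in mutants and -0.16 in wild types), with 16 of 71 lower and 1 higher. The falls numbered 3 to 10 without any of 7 single mutant arrays, 3 with cyclic loess scaling, 25 with arrays centred on their medians, 34 with a trended robust prior and 37 with 16 added before the logarithm.

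Tailbud genes fell in part. Of 25 genes of the somite clock and tailbud 12 fell, 2 rose and 11 did not pass, with a median of -0.33 in mutants and -0.31 in wild types. With dim probe sets left out 3 fell. Their mean level was 5.28, 5.44, 5.37 and 5.04 at 48 hpf, against 6.10, 5.99, 5.84 and 5.61 at 24 hpf. Beside msgn1 and cdx4, the Wnt-responsive sp5l read 4.66, 4.70, 4.69 and 4.13 at 48 hpf, against 6.46, 6.28, 6.16 and 5.45 at 24 hpf (-1.54 ± 0.19), and the signal fgf8a fell by 0.87 ± 0.15. The T-box gene tbxta, active in tailbud and notochord, fell by 0.80 ± 0.14. In the notochord list 2 of 11 rose and 2 fell, both close to the shares over all genes. The falls numbered 1 without mutant 24 hpf replicate 2, mutant 48 hpf replicate 1 or mutant 48 hpf replicate 3. Of 42 Hox genes 5 fell, 1 rose and 36 did not pass, with falls and rises both below the shares over all genes. The fallen genes included hoxc8a (-0.71 ± 0.11, with both further probe sets not passing) and hoxb1a (-0.96 ± 0.24). The Hox falls numbered 2 without mutant 24 hpf replicate 1, mutant 24 hpf replicate 2 or mutant 48 hpf replicate 4. Of 5 hatching gland genes agr2 rose (1.16), klf17 fell (-0.81) and 3 did not pass.

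**Figure D3:**
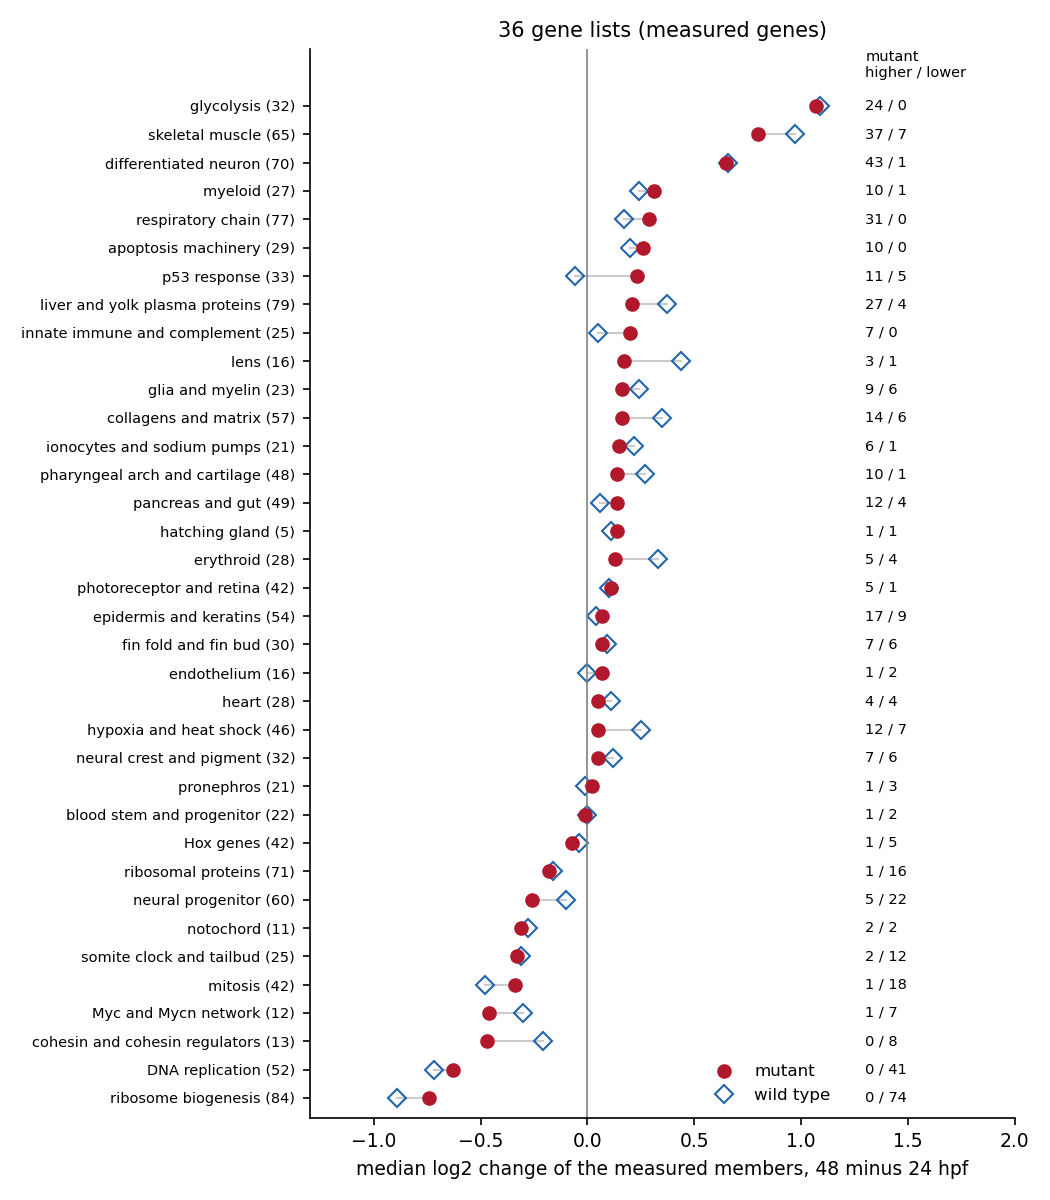
Median log2 change, 48 minus 24 hpf (horizontal axis), of the measured genes of each list in mutants (filled circles) and wild types (open diamonds), sorted by the mutant median; numbers at the right are the mutant genes that rose and fell. Glycolysis (1.07) and skeletal muscle (0.80) are at the top, ribosome biogenesis (-0.74) and DNA replication (-0.63) at the bottom.

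Genes of stress responses were followed next. Of 33 p53 response genes 11 rose, 5 fell and 17 did not pass, with a median of 0.23 in mutants, and 6 rose and 6 fell in wild types with a median of -0.06. In mutants the falls were near the share over all genes. They numbered 2 without mutant 24 hpf replicate 2, and 3 without mutant 24 hpf replicate 3, mutant 48 hpf replicate 3 or mutant 48 hpf replicate 4. The list averaged 6.89, 6.91, 6.99 and 7.22 at 48 hpf, against 6.62, 6.73, 6.66 and 6.81 at 24 hpf. The ubiquitin ligase gene mdm2, a p53 target that restrains p53, read 9.28, 9.46, 9.82 and 10.29 in mutants at 48 hpf, against 8.49, 8.53, 8.67 and 8.42 at 24 hpf (1.18 ± 0.16). In wild types it ran from 7.93 to 8.19 at 48 hpf, against 8.39 to 8.67 at 24 hpf (-0.47 ± 0.16). It rose in mutants and fell in wild types, with a difference of 1.65 ± 0.22 (adjusted p = 0.00106). The Akt inhibitor phlda3 rose 3.00-fold in mutants (1.59 ± 0.16) against a wild type change of 0.02, and the difference passed (1.57 ± 0.23, adjusted p = 0.00185). The stress-responsive forkhead gene foxo3b rose by 1.47 ± 0.18. Its difference from wild types (0.69) did not pass (adjusted p = 0.251).

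Cell death genes rose at 10 of 29 members and fell at 0 in mutants (13 and 1 at an unadjusted p under 0.05), and 9 rose and 6 fell in wild types, with a median of 0.26 in mutants and 0.20 in wild types. The inflammatory caspase gene caspb read 9.11, 9.17, 8.88 and 9.33 at 48 hpf, against 6.97, 6.81, 6.84 and 7.24 at 24 hpf (2.16 ± 0.11), with a wild type change of 2.31. A rise was also seen in the initiator caspase gene casp8 (0.83 ± 0.13). In innate immunity 7 of 25 genes rose in mutants and 0 fell (9 and 0 at an unadjusted p under 0.05). In wild types 0 passed by limma (3 rose and 0 fell at an unadjusted p under 0.05), and the difference between genotypes passed for 0 of the 25 (7 at an unadjusted p under 0.05). The interferon regulatory factor genes irf1b (0.99 ± 0.23) and irf9 (0.65 ± 0.17) kept their calls without any single array, at levels near background. For irf1b these were 3.86, 4.38, 4.49 and 5.55 at 48 hpf, against 3.46 to 3.69 at 24 hpf. Some calls of other members rested on a few arrays, as in the 2 members that follow. The cytokine signalling inhibitor socs3a read 5.36, 7.38, 8.32 and 10.13 at 48 hpf, against 5.22, 6.50, 4.77 and 5.19 at 24 hpf, so that the times overlapped. The interferon-stimulated isg15 read 3.85, 4.01, 6.56 and 7.24 at 48 hpf, against 3.68 to 3.94 at 24 hpf, high in replicates 3 and 4 and at background in replicates 1 and 2. Its call was lost without any of 6 single mutant arrays (adjusted p = 0.0557 to 0.115), and its change was 1.01 without mutant 48 hpf replicate 4. That of socs3a was lost without any of 3 (adjusted p = 0.0535 to 0.0592). The count of 7 became 2 without mutant 48 hpf replicate 3, 3 without mutant 48 hpf replicate 4 and 4 without mutant 24 hpf replicate 1, 2 or 3. Of 46 hypoxia and heat shock genes 12 rose and 7 fell in mutants (median 0.05), and 18 rose and 8 fell in wild types (median 0.25). In mutants the falls were near the share over all genes. The rises numbered 7 without mutant 24 hpf replicate 1 or mutant 48 hpf replicate 4, and the falls 4 without mutant 24 hpf replicate 2.

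The difference between the time courses was then tested gene by gene. It passed at 225 probe sets, with the mutant change above the wild type change at 94 (0.606%) and below it at 131 (0.845%). The counts moved with single arrays, from 45 to 99 and from 78 to 135. They numbered 45 and 80 without mutant 24 hpf replicate 3, and 47 and 78 without wild type 48 hpf replicate 1. Of the 822 probe sets that rose in wild types and did not pass in mutants, the difference passed at 64, and of the 1389 that fell in wild types and did not pass in mutants it passed at 39. For the rest a difference in time course was not shown.

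**Figure D4:**
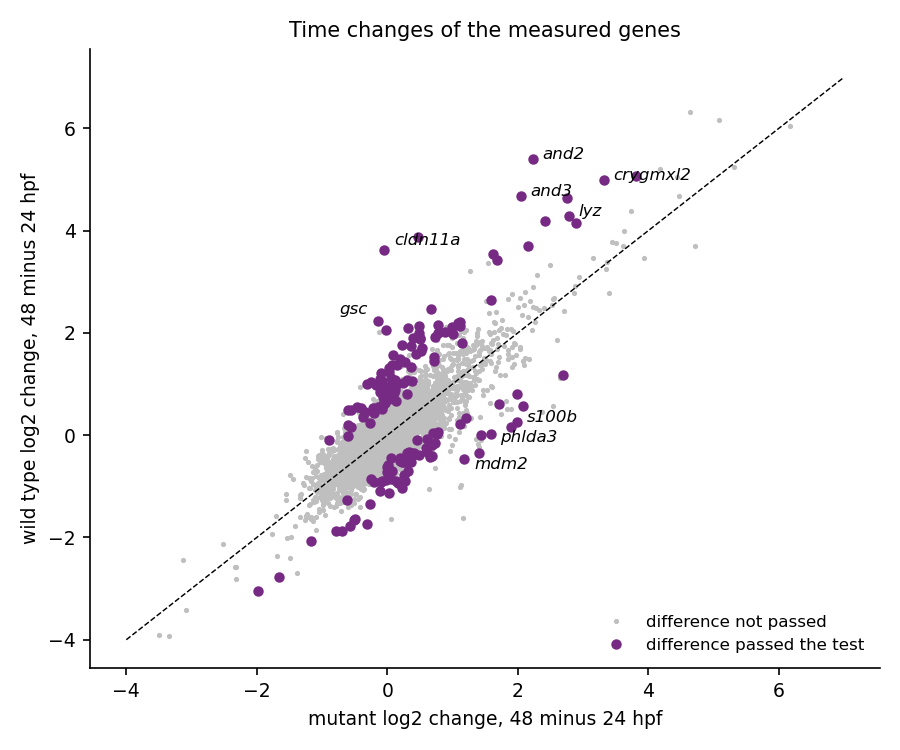
Log2 change, 48 minus 24 hpf, in mutants (horizontal axis) against wild types (vertical axis), 1 point per gene, with the genes whose difference passed the test in colour and the line of equal change dashed. Most genes follow the line; cldn11a (-0.04 in mutants, 3.63 in wild types) and gsc (-0.15 and 2.23) lie far above it.

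Some genes that switched on in wild types did not pass in mutants, with a difference that passed. The claudin cldn11a, a tight junction protein, read 3.65, 3.67, 3.52 and 3.57 in mutants at 48 hpf, against 3.83, 3.55, 3.73 and 3.47 in mutants at 24 hpf. In wild types it read 7.74, 7.35, 7.20 and 7.57 at 48 hpf, against 3.72, 3.89, 3.89 and 3.83 at 24 hpf. It stayed at background in all 8 mutant arrays and rose by 3.63 from background in wild types (difference -3.67 ± 0.16, adjusted p = 2.06e-10). Goosecoid, gsc, a homeobox gene of the jaw arches at this age, was also at background in mutants, at 3.08, 3.46, 3.26 and 3.21 at 48 hpf, against 3.63, 3.37, 3.28 and 3.34 at 24 hpf. Its wild type values were 5.73, 5.17, 5.51 and 5.78 at 48 hpf, against 3.47, 3.50, 3.18 and 3.13 at 24 hpf (difference -2.38 ± 0.19, adjusted p = 1.98e-06, and -1.33 with 16 added before the logarithm). The chemokine ccl25b (mutant -0.02, wild type 2.07), the calcium-binding neuronal calb2a (0.22 and 1.77) and the matrix proteoglycan aspn (0.39 and 1.91) followed the same pattern. The vessel gene plvapb, of the fenestrated endothelium, read 6.47, 6.49, 6.32 and 6.10 in mutants at 48 hpf, against 5.68, 5.60, 6.03 and 6.14 in mutants at 24 hpf. Its times overlapped and its change of 0.48 did not pass (adjusted p = 0.0545), though it did under 5 other settings (adjusted p = 0.0184 to 0.0498) and without any of 5 single arrays, while in wild types it rose by 2.00 (difference -1.52 ± 0.25, adjusted p = 0.00432).

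Others rose in both genotypes, but less in mutants. The actinodins and2 and and3 belong with and1 to the fin fold fibres. The level of and2 was 7.08, 5.66, 5.64 and 7.68 in mutants at 48 hpf, against 4.34, 4.21, 4.35 and 4.22 at 24 hpf, a change of 2.23. In wild types it ran from 9.52 to 10.44 at 48 hpf, against 4.40 to 4.91 at 24 hpf, a change of 5.41 (difference -3.18 ± 0.49, adjusted p = 0.00263). The difference was -2.62 ± 0.27 for and3 (adjusted p = 5.44e-05), and that of and1, -1.03, did not pass (adjusted p = 0.396). The parvalbumin pvalb5, which was not in the skeletal muscle list, read 6.49, 6.67, 6.68 and 6.62 in mutants at 48 hpf. At 24 hpf it read 4.33, 4.09, 4.03 and 4.35. Its wild type change was 4.20 and the difference was -1.78 ± 0.17. For the muscle genes pvalb1 (0.13), pvalb4 (-0.19) and tnnt3b (0.07) the differences did not pass. Within the list of 65 skeletal muscle genes the difference passed with the mutant change higher at 2 and lower at 4. The shares over all probe sets were 0.606% and 0.845%. In the lens, crygmxl2 (-1.66 ± 0.20) and cryba4 (-1.27 ± 0.22) rose less. The beaded filament gene bfsp2 did not pass in mutants (0.37, adjusted p = 0.0848) and rose by 1.75 in wild types (difference -1.38 ± 0.21, adjusted p = 0.00263). Elsewhere the apolipoprotein apoea (-1.92 ± 0.36) and the cytochrome oxidase subunit cox4i1l (-1.74 ± 0.27) rose less. For lyz the difference (-1.51 ± 0.33, adjusted p = 0.0303) was lost without any of 8 single arrays (adjusted p = 0.0513 to 0.0658).

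The opposite sign was seen as well. The calcium-binding s100b, used as a marker of glia and sensory cells, read 5.86, 5.49, 5.33 and 6.66 in mutants at 48 hpf, against 3.56, 3.97, 3.86 and 3.99 at 24 hpf. In wild types it stayed at background, at 3.32 to 3.88 at 48 hpf, against 3.14 to 3.54 at 24 hpf. It rose by 1.99 from background in mutants, and the difference was 1.74 ± 0.30 (adjusted p = 0.00763). The visual cycle gene rlbp1a rose by 1.72 in mutants and 0.61 in wild types (difference 1.11 ± 0.20, adjusted p = 0.00996). The sterol enzyme cyp51 rose by 1.43 in mutants and changed by 0.01 in wild types (adjusted p of the difference 0.00276), but 3 further, dimmer probe sets of cyp51 did not pass in mutants, and the mean over its probe sets gave a difference of 0.25 (adjusted p = 0.485). Complement factor D, cfd, did not pass in mutants (-0.31) and fell by 1.74 in wild types (difference 1.43 ± 0.20), and gtsf1, a germ line gene of the piRNA pathway, did not pass in mutants (-0.11) and fell in wild types (difference 0.99). The sodium pump genes atp1a1a.2 (1.52 ± 0.32) and atp1b1b (1.19 ± 0.26) had a larger rise in mutants from a lower 24 hpf level, with atp1a1a.2 means of 8.53 at 48 hpf and 5.83 at 24 hpf in mutants, against 9.09 and 7.91 in wild types. Both differences were lost without single arrays, 5 for atp1a1a.2 (adjusted p = 0.0531 to 0.0579) and 7 for atp1b1b (0.0513 to 0.062), and without the 3 arrays least like their groups (adjusted p = 0.0667 and 0.0725).

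**Figure D5:**
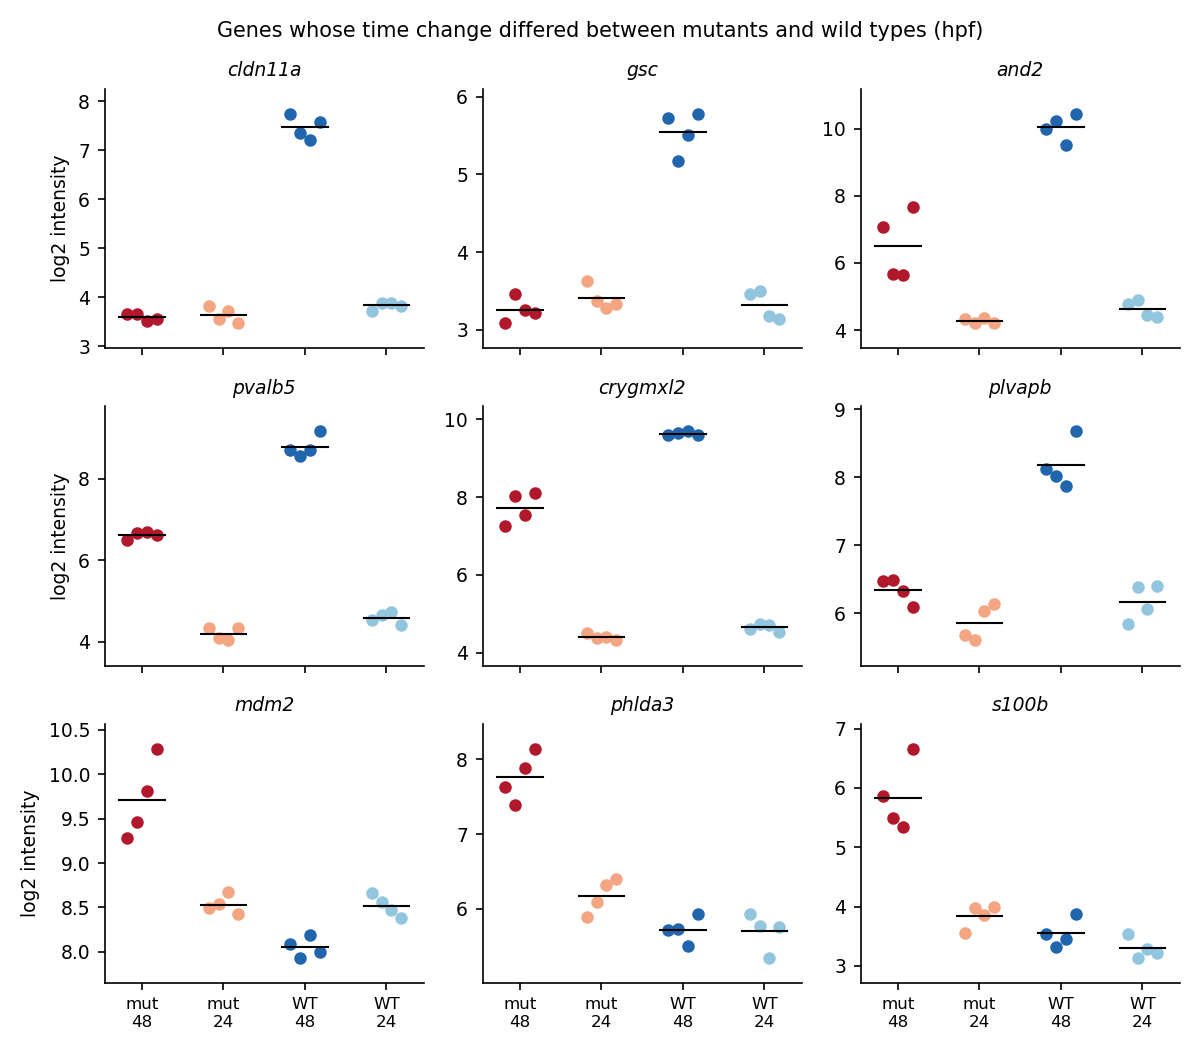
Log2 intensity (vertical axis, its own scale in each panel) of 9 genes whose time change differed, in mutants at 48 and 24 hpf and wild types (WT) at 48 and 24 hpf; points are arrays and lines the means (n = 4). For cldn11a and gsc the wild type 48 hpf arrays stand above all other groups; mdm2, phlda3 and s100b are highest in mutants at 48 hpf.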

How the data were processed

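Affymetrix zebrafish arrays measured RNA of whole embryos, 16 arrays in 4 groups of 4. The deposited table holds linear intensity values of the authors for 15617 probe sets. GCOS, RMA and affy are named in the submitters' processing notes, with versions that are not given in the sources used. Array medians ran from 45.5 to 48.08 in these deposited intensity units, no value was missing, and the number of arrays limits the precision.

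After 115 control probe sets were left out, the deposited intensities were taken to log2 and 15502 probe sets were fitted with limma 3.58.1 in R 4.3.3, as group means over all 16 arrays with empirical Bayes moderation (12 residual and 4.97 prior degrees of freedom). Contrasts were 48 minus 24 hpf in mutants, the same in wild types, and their difference, each adjusted by Benjamini-Hochberg over all probe sets. The self-test on simulated data was run first.

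The platform annotation gave 1 symbol for 10795 probe sets, several for 135 and none for 4572. Through gene IDs, 10711 matched current RefSeq annotation. Of 8793 named genes, 1539 had more than 1 probe set and took the one with the highest mean over the 16 arrays.

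Genes were named by rule: the 15 largest increases and decreases without overlap of the times, up to 5 members a list by adjusted p, the largest differences between genotypes, changes called in 1 genotype or in opposite directions with a called difference, and the cohesin genes with mdm2 and myca. Clone names were not eligible. The members, the 36 lists and the tests were chosen with earlier results of these data known. Cell type markers were a further list, and the photoreceptor, yolk and liver markers named from it fall outside the rule.

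Alternatives were cyclic loess, median centring, a filter on dim probe sets (log2 above 6 in at least 4 arrays), 16 added before the logarithm, a trended robust prior, the mutant arrays alone, a replicate block, the mean over probe sets, a 2-fold minimum, each array left out in turn and, chosen after seeing the data, the 3 arrays least like their groups left out. A planned search of promoter sequences was not run. Replicates are pools, so p-values measure the spread between pools.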

Additional observations from a re-analysis of the deposited data

Results flagged for a closer look

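Of 224 groups of 4 mutant arrays examined for the genes named above, 8 held an array that stood apart from the other 3 (a gap to the nearest other array above Dixon's limit as a share of the group's range), where chance gives about 1 in 20. Mutant 24 hpf replicate 4 was that array for 4 genes, with hbbe2 at 8.40 against 7.35 to 7.45 in the others, atp1a1a.2 at 6.69 against 5.49 to 5.59, aqp1a.1 at 5.48 against 4.72 to 4.81, and ccl25b at 4.03 against 4.35 to 4.36. Mutant 48 hpf replicate 4 was that array for sp5l, at 4.13 against 4.66 to 4.70, for gng3, at 8.85 against 8.19 to 8.27, and for irf9, at 5.30 against 4.46 to 4.57. In gtsf1 mutant 48 hpf replicate 3 was highest, at 8.43 against 8.12 to 8.16.

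For 25 of the named genes the change in mutants differed from that in wild types in the test of the difference itself (mutant minus wild type change, limma, adjusted p under 0.05). The mutant change was the lower one for cldn11a (-3.67), and2 (-3.18), and3 (-2.62), gsc (-2.38), ccl25b (-2.08), apoea (-1.92), pvalb5 (-1.78), cox4i1l (-1.74) and crygmxl2 (-1.66). The same held for calb2a (-1.55), aspn (-1.52), plvapb (-1.52), lyz (-1.51), bfsp2 (-1.38), cryba4 (-1.27) and isl1a (-1.05). It was the higher one for s100b (1.74), mdm2 (1.65), phlda3 (1.57), atp1a1a.2 (1.52), cyp51 (1.43), cfd (1.43), atp1b1b (1.19), rlbp1a (1.11) and gtsf1 (0.99). The genes were named partly for this difference, so their number is no measure of how common it was.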

How the results depend on the processing

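No named value changed sign while called. The naming rule gave 222 genes, and the counts here cover only the 112 of them described above. Among these, 103 were called between the times in mutants, and 99 kept their call under every alternative that tested them. The other 4 lost it under some (rad21a, myca, isg15 and socs3a). A further 3 that were not called gained a call under some (plvapb, bfsp2 and aspn). Of 25 called differences among the 112 genes, 21 kept their call and 4 did not (lyz, atp1a1a.2, atp1b1b and cyp51). Other rule genes, not described above, also lost calls when a single array was left out, while some kept theirs. The mutant change of pds5a was lost without any of 12 arrays and that of prox1a without any of 6. For the innate immune gene socs3b it was lost without mutant 48 hpf replicate 3 (adjusted p = 0.0521). The difference of bmp5 was lost without any of 15 arrays and that of myl6 without any of 14. These counts of kept calls therefore hold only for the genes described. Without the dim probe sets 1048 rose in mutants and 1229 in wild types. At least 2-fold, 433 rose and 140 fell in mutants, 541 rose and 245 fell in wild types, and the difference was positive at 39 and negative at 73. Leaving out 1 array gave 1270 to 1852 rises and 1346 to 2217 falls in mutants, 1712 to 2075 rises and 2263 to 2883 falls in wild types, and differences positive at 45 to 99 and negative at 78 to 135. The positive differences numbered far fewer without mutant 24 hpf replicates 1 (61), 2 (59) or 3 (45), wild type 24 hpf replicates 2 (62) or 3 (59) and wild type 48 hpf replicates 1 (47) or 2 (62). The negative ones numbered far fewer without mutant 24 hpf replicates 3 (80) or 4 (84), mutant 48 hpf replicate 3 (84), wild type 24 hpf replicate 3 (85) or wild type 48 hpf replicate 1 (78).

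The replicate block gave 1797 rises and 2115 falls in mutants, and 123 positive and 163 negative differences. The numbers share no stated source. Deviations of mutant arrays with the same number correlated at 0.36, 0.04, 0.17 and 0.40 over probe sets, and 3 of 4 mutant 48 hpf arrays correlated best with their own number. With the block the fall of rad21a did not pass (adjusted p = 0.0537).

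With dim probe sets left out, rises numbered 2 in photoreceptor and retina, 6 in the pharyngeal arch and cartilage list, 6 in pancreas and gut, 4 in cell death, 7 in hypoxia and heat shock and 1 in innate immunity, and falls 3 in fin fold and fin bud, 3 in the p53 response and 2 in liver and yolk, where fewer genes were tested. With cyclic loess, falls numbered 5 in epidermis, 3 in the p53 response, 2 in hypoxia and heat shock and 2 in liver and yolk. With 16 added before the logarithm 4 innate immune genes rose and 3 p53 response genes fell. With the 8 mutant arrays alone 3 innate immune and 5 lens genes rose, and 5 ribosomal protein and 2 liver and yolk genes fell. Hox falls numbered 9 with centred arrays and 8 with the block, and notochord falls 4 with the block. Without the 3 arrays least like their groups, 8 erythroid and 9 neural progenitor genes rose, and 5 ribosomal protein and 4 notochord genes fell.

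Levels near the foreign sequences limit what the arrays can show. With 16 added before the logarithm the changes of dim genes shrank, to -0.53 for fgf8a, 1.02 for glra4a, 1.28 for s100b, 1.06 for srgn, 0.54 for irf1b, 0.37 for irf9 and 1.20 for pmelb, and the differences to -0.84 for bfsp2 and -0.92 for aspn. With the mean over probe sets the changes were -1.79 for msgn1, -0.52 for npm1a, 0.99 for gng3, 1.00 for runx2a, 1.43 for tnn, 1.02 for pgk1 and -0.35 for hoxc8a. The causes were not tested.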
